A study of Mus musculus with 4 samples.

Results

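The comparison described here set the 1 array of naive CD4+ T cells from mice labelled deficient in miR-7 against the 1 array of naive CD4+ T cells from wild type mice, which are 2 of the 4 arrays of the series. Both samples came from mice of the FVB/N background: spleen cells were sorted with magnetic beads into CD4+CD62Lhi cells, which are T helper cells that have not met antigen. Neither naive group was stimulated. The labels do not say how miR-7 was made deficient, in which cells, or at what age or sex the mice were used, and they call each sample a representative of 3 biological replicates without saying whether RNA was pooled. Since each group had 1 array, every difference below lies between 2 arrays, no replicate error exists, and no p-value is given.

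MicroRNAs are short RNAs that load into Argonaute proteins and lower the stability or translation of messenger RNAs that pair with their seed, the bases near the 5′ end. The miR-7 family is best known from neurons and endocrine cells. Published targets include Egfr, the epidermal growth factor receptor, and Pik3cd, the catalytic subunit of the PI3 kinase that lymphocytes use. The mature miR-7 sequences, as RefSeq gives them on GRCm38.p6, are shown because their seed is the part that defines the targets. The capitals mark the seed, bases 2 to 8 from the 5′ end, which both forms share.
mmu-miR-7a-5p: uGGAAGACuagugauuuuguugu
mmu-miR-7b-5p: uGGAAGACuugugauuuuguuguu
The same mature miR-7a arises from Mir7-1 on chromosome 13 (58392841 to 58392863, minus strand) and from Mir7-2 on chromosome 7 (78888295 to 78888317, plus strand). The miR-7b form arises from Mir7b on chromosome 17 (56243017 to 56243040, plus strand). Over the shared bases the forms differ by A10U, counted from the 5′ end with the miR-7a base first. None of these loci has a row on the array, so the deficiency itself could not be checked.

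The normalized intensities covered 35411 rows, of which 33663 named a gene, 20735 genes in all. A floor was set on each array at the 95th percentile of 668 rows of smell, taste and pheromone receptor genes, which T cells are not known to use. It lay at 983 on the wild type and 1003 on the miR-7 deficient array. Dimmer values were raised to the floor, so that a difference with 1 side below is a bound, written "at least" or, on the low side, as a bound with its minus sign. The 2876 genes whose mean log2 intensity over both naive arrays lay above the mean floor were counted, a rule that uses no direction. Across all array rows the log2 intensities of the 2 arrays had a Pearson correlation of 0.90, and across rows above the floor it was 0.92. Rows are not independent replicates.

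The naive cell label was checked against 24 measured marker genes of naive CD4 T cells, of which 7 lay below the floor on both arrays. Cd3g, part of the CD3 complex, read 3691 on the wild type and 4141 on the miR-7 deficient array. Tcf7, which encodes the factor TCF-1, read 7354 and 5878. Cd4 itself read 971, just under the floor, on the wild type array and 1412 on the miR-7 deficient array. These values place T cell transcripts on both arrays. Cd44, a receptor that antigen-experienced T cells carry, and Il2ra, the high-affinity interleukin-2 receptor chain, lay below the floor on both arrays, as did Cd69, an early activation marker. Of 16 measured markers of regulatory and effector-memory T cells 9 lay below the floor on both arrays. Others of that list lay above it on both: Ctla4 (2457 and 2606), Tnfrsf18 (2223 and 2350) and Rora (2811 and 2339).

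Markers of other cells were mostly dim but were not absent. Of 19 B cell and plasma cell markers 13 lay below the floor on both arrays, and their summed intensity was 15185 on the wild type and 24472 on the miR-7 deficient array. Ighm, the immunoglobulin heavy chain of naive B cells, read 5220 and 9703, and all 5 of its rows were higher on the miR-7 deficient array. Cd79b, part of the B cell receptor, read 2190 and 3662, while its partner Cd79a (274 and 519) and the B cell antigen gene Ms4a1 (230 and 148) stayed below the floor. Taken as measured, 11 of the 19 markers read higher on the miR-7 deficient array and 8 read lower, among them Cd72, a coreceptor, at 1338 and 569, and Fcer2a, a receptor for IgE, at 1065 and 912. Of 13 neutrophil markers 11 were higher and 2 lower with no floor applied, with a median of 0.49, and 9 lay below the floor on both arrays. S100a9, a calcium-binding protein of granulocytes, read 804 and 2563, its partner S100a8 read 347 and 1210, and Pglyrp1, a granule protein that binds bacterial cell walls, read 10237 and 4324. Of 20 markers of neurons and glia 19 lay below the floor on both arrays. Of 25 markers of myeloid and dendritic cells 21 did so, and with no floor applied 13 were higher and 12 lower. Lyz2, which encodes lysozyme, read 1108 and 1360, while the other lysozyme gene Lyz1 read 1184 and 416. Cst3 read 1926 and 2628, and Ctss read 1017 and 1785. Kdm5d (1781 and 1808) and Eif2s3y (1236 and 1599), genes of the Y chromosome, lay above the floor on both arrays, and Xist, the RNA of the inactive X chromosome, lay below it on both (145 and 98).

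**Figure D1:**
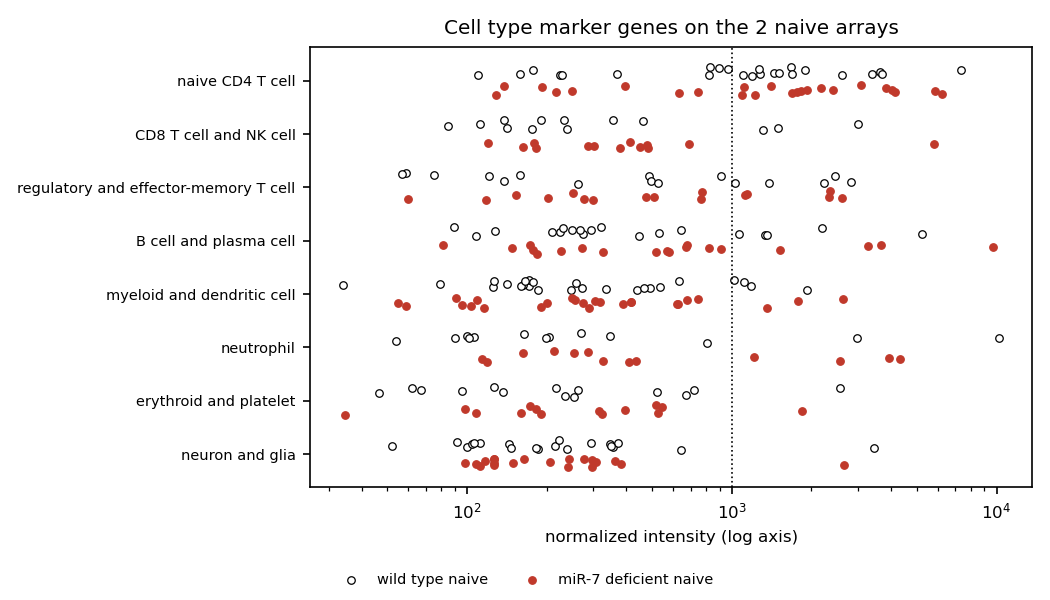
Normalized intensity (horizontal, log axis) of each measured marker gene of 8 cell types on the wild type naive array (open circles) and the miR-7 deficient naive array (red circles); the dotted line is the miR-7 deficient floor, and vertical scatter within a type has no meaning. Most naive CD4 T cell markers lie right of the floor, while 19 of 20 neuron and glia markers lie left of it on both arrays.

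Across the 2876 genes the 2 arrays were close. The median log2 difference, miR-7 deficient minus wild type, was 0.17, with quartiles at -0.19 and 0.47, and 1819 genes (63.2%) were higher in miR-7 deficient cells. At 2-fold or more the arrays parted for 96 genes, 3.34% of those counted. Of these, 68 (2.36%) were higher and 28 (0.974%) were lower on the miR-7 deficient array. In 20 of the 68 and 13 of the 28 the difference is a bound because the dimmer array lay below its floor.

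The general shift followed intensity. Without a floor, genes with a mean log2 intensity of 7 to 8 had a median difference of -0.06 and an SD of 0.83 across genes. Genes between 13 and 14 had a median of 0.26 and an SD of 0.41, and 75.4% of these 248 genes were higher on the miR-7 deficient array. The 49 brightest genes, above 15, had a median of 0.01. Removing this trend with a lowess curve changed the split of genes 2-fold apart from 68 higher and 28 lower to 34 higher and 53 lower, and normalizing the naive pair alone by quantiles gave 29 higher and 62 lower. Which direction holds more of the genes 2-fold apart therefore depended on the scaling, so list medians are also given without the trend, that is, after its removal with the same floor applied.

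**Figure D2:**
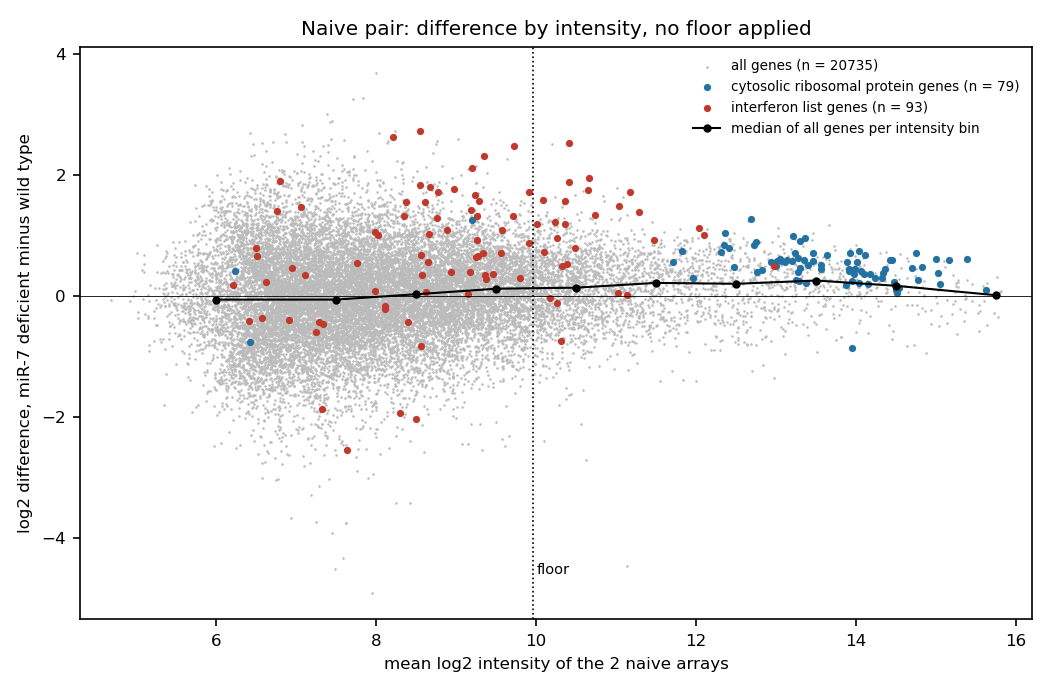
Log2 difference without a floor (vertical, miR-7 deficient minus wild type) against the mean log2 intensity of both naive arrays (horizontal) for 20735 genes, with 93 interferon list genes in red, 79 cytosolic ribosomal protein genes in blue and the median of all genes per intensity bin as a black line. The black line rises from -0.06 at low to 0.26 at high intensity; interferon list genes lie mostly above it over a wide range of intensity, and ribosomal protein genes lie together at high intensity.

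Among the highest differences were many genes that interferons induce: 5 of the 15 highest above both floors and 4 of the 8 largest bounds belonged to the interferon lists, beside 27 of all 2876 counted genes (0.94%). Since the lists were written with earlier results of these data known, these shares are a description and give no support. Interferons are secreted proteins that act through paired receptors, Janus kinases and STAT and IRF transcription factors, and they switch on a large set of genes that restrict viruses and intracellular microbes. Dapl1, a transcript of naive T cells, read 1107 on the wild type and 3840 on the miR-7 deficient array, a log2 difference of 1.79. Cytip, which binds the exchange factor of an adhesion pathway in leukocytes, read 1066 and 3167 (1.57). Gbp2, a guanylate-binding protein that acts against intracellular pathogens, read 1247 and 3507 (1.49). Each of these values lay above the floor on both arrays. Rtp4, an interferon-induced chaperone of membrane receptors, read 1533 and 4040 (1.40). Ly6a, the surface protein Sca-1, which interferon raises on lymphocytes, read 1077 and 2717 (1.33). Odc1, the enzyme that starts polyamine synthesis, read 1817 and 4268 (1.23), and its known activator Myc read 962, below the floor, and 2302, at least 1.23 higher. Arap2, a regulator of small GTPases, was 1.30 higher, and Pwwp2a, a chromatin reader, was 1.21 higher.

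Genes above the floor in miR-7 deficient cells alone gave bounds of similar size. Tgtp1, a GTPase induced by interferon in T cells, read 564 and 3255, at least 1.73 higher. Parp9, an ADP-ribosyltransferase family member of the interferon response, read 823 and 3203, at least 1.70 higher. Igtp, also called Irgm3, which guards vacuoles against parasites, read 871 and 2930, at least 1.58 higher, and all 3 of its rows shared that direction. Ifi27l2a, an interferon-induced mitochondrial protein, read 705 and 2604, at least 1.41 higher on the row that represents it, while its other row had the opposite sign. The bounds on the same side outside the interferon lists were Ppp1r9b (at least 1.52), which encodes a scaffold of a protein phosphatase, Slc4a9 (at least 1.52), which encodes an anion transporter, S100a9 (at least 1.38) and Tmed2 (at least 1.31), which encodes a cargo receptor of the secretory route.

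**Figure D3:**
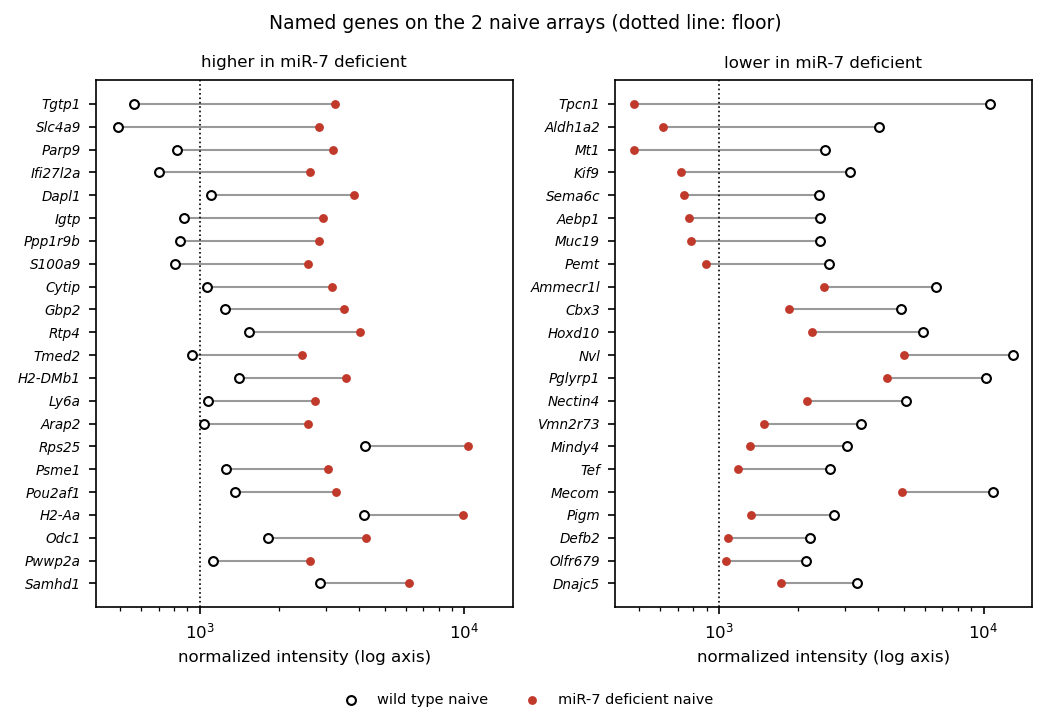
Normalized intensity (horizontal, log axis) of the genes with the highest and lowest differences and the largest bounds on the wild type naive array (open circles) and the miR-7 deficient naive array (red circles), joined by a line per gene, with the miR-7 deficient floor dotted. Left, genes higher on the miR-7 deficient array, led by Tgtp1 (564 and 3255); right, genes lower on it, led by Tpcn1 (10568 and 478).

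The interferon lists were then taken member by member. They were written with earlier results of these data known, so their shares beside those of all genes are a description only. Of 93 measured genes in 3 lists, 27 had a mean above the floor; 24 of them were higher on the miR-7 deficient array, 3 were lower and 12 were 2-fold or more higher, where 2.36% of all counted genes were. Their median log2 difference was 0.92, and 0.83 after the intensity trend was removed and the floor set as before, beside 0.17 and 0.02 for all counted genes. In 11 of the 27 the value is a bound because the wild type array lay below its floor, and in 1 because the miR-7 deficient array did. With no floor applied, 76 of the 93 lay higher and 17 lower, and the median was 0.80, where 52.1% of all genes were higher. The floor itself separated the arrays for these genes: 20 lay above it on the miR-7 deficient array alone and 1 on the wild type array alone, beside 583 and 423 among all genes. The 57 others lay below it on both arrays.

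The GTPases of cell-autonomous immunity had 4 members counted, of which 3 are bounds with the wild type array below its floor; their median was 1.53, and 1.42 without the trend. With no floor applied, 14 of the 16 measured lay higher and 2 lower, with a median of 1.03. Besides Gbp2, Igtp and Tgtp1 these included Gbp4, which read 876 and 1705, at least 0.80 higher. Irgm1, which helps clear mycobacteria, read 528 and 1742, at least 0.83 higher, and Gbp3 read 520 and 1110, at least 0.17 higher; their means lay below the floor, so they are outside the count. Iigp1, another GTPase of this kind, read 305 and 84, both below the floor. Near-identical copies exist for several of these genes, Tgtp1 among them, and an array row may read more than 1 copy.

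Among the antiviral effectors 13 of 14 counted members were higher, 6 of them 2-fold or more, with a median of 0.92, and 0.80 without the trend. Samhd1, which breaks down the nucleotides that viruses need, read 2844 and 6192 (1.12), and its 3 rows above both floors lay between 1.06 and 1.12. Slfn1, a regulator of T cell quiescence, read 2060 and 3902 (0.92). Daxx, a transcriptional corepressor, read 874 and 1991, at least 1.02 higher. Ifi203, a DNA-binding protein of the interferon-inducible PYHIN family, read 2239 and 2270 (0.02), Ifi27 read 2043 and 2125 (0.06) and Ifitm3, which blocks virus entry, read 1275 and 1183 (-0.11). The list was thus uneven, with these 3 members near no difference. Members with a mean below the floor included Isg15, the ubiquitin-like modifier, at 359 and 1996, Ifit1, which binds foreign RNA ends, at 282 and 1223, and Ifit3 at 292 and 1453. Each passed it in miR-7 deficient cells alone, and Oas1a (98 and 74) passed it on neither. Mx1, a member of the GTPase list, read 179 and 260, also below the floor on both arrays.

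Among sensors, receptors and signalling genes 7 of 9 counted members were higher, 3 of them 2-fold or more, with a median of 0.54, and 0.46 without the trend. With no floor applied, 20 of the 28 measured lay higher and 8 lower, with a median of 0.48. Among the 8 were Ddx58 (481 and 82) and Nlrc5 (732 and 179), both below the floor on both arrays. The kinase Jak1, which serves both interferon receptors, read 3092 and 6236 (1.01). Irf1, a transcription factor of the interferon gamma response, read 758 and 2259, at least 1.20 higher, and Irf9, the DNA-binding subunit of the type I interferon complex, read 623 and 1883, at least 0.94 higher. Stat2, its partner, read 850 and 1412, at least 0.52 higher. The receptor chains were closer: Ifnar1 read 1083 and 1523 (0.49) and Ifngr1 read 1171 and 1142 (-0.04). Sting1, the adaptor of the DNA sensing pathway, read 1648 and 985, a bound of -0.72. Ifng, which encodes interferon gamma (197 and 89), and Ifna4, an alpha interferon (93 and 127), lay below the floor on both arrays.

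The promoters of these genes were read for the letters that interferon-activated factors bind, since many members differed in 1 direction. RefSeq promoter windows on GRCm38.p6, from 250 bases before to 50 after a gene's start, were searched on both strands for GAAANNGAAA, the core of the interferon-stimulated response element (ISRE), and for TTCNNNGAA, the gamma-activated site (GAS); the search allowed overlaps of either with the other. The 4 stretches of 60 bases upstream of the start are shown because they belong to genes of these lists 2-fold or more higher, or to H2-T23 below, with the ISRE core in capitals.
Gbp2, chr3:142620579-142620638, plus strand: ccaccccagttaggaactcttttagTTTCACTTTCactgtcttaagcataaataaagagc
Igtp, chr11:58199496-58199555, plus strand: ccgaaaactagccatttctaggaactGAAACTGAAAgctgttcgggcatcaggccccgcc
Tgtp1, chr11:48992289-48992348, minus strand: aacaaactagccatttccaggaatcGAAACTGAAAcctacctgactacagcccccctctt
H2-T23, chr17:36032791-36032850, minus strand: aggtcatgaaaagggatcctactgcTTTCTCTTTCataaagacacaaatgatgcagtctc
In Gbp2 and H2-T23 the match lies on the opposite strand. The first base of the match lay 59 bases before the start in Gbp2, 34 in Igtp, 77 in Tgtp1 and 124 in H2-T23. The ISRE core was found in 1131 of 32851 windows of the table (3.44%). It was found in 6 of 56 windows of the genes 2-fold or more higher (10.7%), and in 2 of 27 windows of the genes 2-fold or more lower (7.41%). Among interferon list genes with a mean above the floor it was found in 8 of 23 windows (34.8%), and the GAS in 7 of 23 (30.4%). The GAS was found in 8.30% of all windows, in 4 of 56 of the genes 2-fold or more higher (7.14%) and in 1 of 27 of the genes 2-fold or more lower (3.70%). Outside the interferon lists, 3 of 46 windows of the genes 2-fold or more higher held the ISRE core and 0 held the GAS. Windows were at hand for 42 of the 68 higher and 20 of the 28 lower genes, and a match is a description of the letters only.

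Antigen presentation genes of the class I pathway, which shows peptides to CD8 T cells, ranged from -0.48 to 1.28. The heavy chains H2-K1 and H2-D1 were among the brightest rows and differed little: H2-K1 read 17582 and 18266 (0.06), H2-D1 read 32324 and 27360 (-0.24) and B2m, their shared light chain, read 27047 and 32308 (0.26). The nonclassical chain H2-Q6 read 2366 and 3475 (0.55), and Erap1, which trims peptides, read 1800 and 1292 (-0.48). Psme1, a subunit of the proteasome activator that interferon gamma induces, read 1256 and 3052 (1.28), Psme2, its partner, read 2114 and 3794 (0.84), and Psmb8, an immunoproteasome subunit, read 1606 and 3137 (0.97). Psmb10 (521 and 1545) and Psmb9 (604 and 1402), the other immunoproteasome subunits, were above the floor in miR-7 deficient cells alone. Tap1, the peptide transporter, read 2712 and 3680 (0.44). H2-T23, the mouse Qa-1 molecule, read 901 and 2075, at least 1.08 higher, while its other row had the opposite sign. Of 17 counted members of the class I list 14 were higher and 2 were 2-fold or more higher, with a median of 0.33, and 0.16 after the trend was removed. Rows of the class I heavy chains may read more than 1 gene of this polymorphic family.

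All 6 counted members of the class II pathway were higher, with a median of 0.71, and 0.57 after the trend was removed; 2 were 2-fold or more higher. Class II molecules show peptides to CD4 T cells and in mice are made chiefly by B cells, dendritic cells and macrophages. H2-Aa read 4186 and 9870 (1.24), and its 3 rows lay between 0.89 and 1.79. H2-DMb1, a chain of the peptide exchange factor, read 1408 and 3583 (1.35), with rows between 0.49 and 1.35. H2-Ab1 read 3807 and 6324 (0.73) and Cd74, the invariant chain, read 7065 and 10307 (0.54). The summed B cell markers were also higher, 15185 and 24472, a sum carried by a few bright genes while 8 of the 19 were lower with no floor applied, with Pou2af1, a coactivator of octamer factors in B cells, at 1359 and 3261 (1.26) and Ighm 0.89 higher. Their part in the class II result was not tested, and in bulk RNA fewer cells of a type and less RNA per cell cannot be told apart.

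Genes of T cell identity and receptor signalling had medians nearer to the general shift. Of 15 counted genes of naive identity and quiescence 12 were higher, with a median of 0.31, and 0.14 after the trend was removed. Dapl1 stood at the top of that list. Il7r, the interleukin-7 receptor (822 and 1833, at least 0.90), and Satb1, a chromatin organizer of T cells (3792 and 6718, 0.83), were also among its higher members. Tcf7 (-0.32) and Ccr7, the chemokine receptor that guides naive cells into lymph nodes (1438 and 1114, -0.37), lay at the other end. Members of this list thus lay on both sides of 0. In the T cell receptor list 16 of 21 counted members were higher, with a median of 0.24, and 0.07 without the trend. Within the receptor complex Cd3d read 1681 and 3072 (0.87) while Cd3e read 1680 and 1220 (-0.46). Ptpn22, a phosphatase that restrains the receptor signal, read 1072 and 2084 (0.96), Ptprc, which encodes CD45, read 1961 and 3253 (0.73), and Zap70, the kinase that binds the activated receptor, read 1138 and 965, a bound of -0.18. Thy1, a surface protein of mouse T cells, read 1889 and 742, a bound of -0.91, and Foxp3, the factor of regulatory T cells, read 1385 and 763, a bound of -0.47.

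Published targets of miR-7 were mostly too dim to compare. Of 30 measured targets 27 lay below the floor on both arrays. Pik3cd read 2329 and 2237 (-0.06), and 2 of its 4 rows had each sign. Psme3, a proteasome activator subunit, read 1109 and 1546 (0.48), and Bhlhe40, a transcription factor of effector T cells, read 914 and 1137, at least 0.21 higher. With no floor applied, 19 of the 30 lay higher, where 52.1% of all genes were. Egfr (118 and 63) and Pak1 (55 and 42) were among those below the floor. Hnrnpk, the host gene of Mir7-1, read 1960 and 3086 (0.65), and 4 of its 5 rows shared that sign.

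Ribosomal protein genes shared 1 direction with small differences. Of 76 counted cytosolic ribosomal protein genes 75 were higher, where 63.2% of all counted genes were. Their median was 0.51, and 71 lay above the intensity trend, with a median of 0.33 from it. The range ran from -0.86 for Rpl22 (21204 and 11692), whose other 2 rows had the opposite sign, to 1.28 for Rps25 (4228 and 10280), whose 5 rows were all higher. Of the 76, 2 were 2-fold or more higher, Rps25 and Rps20 (3672 and 7555, 1.04), a share near the 2.36% of all counted genes. Rows of ribosomal protein genes may also read their many processed pseudogenes.

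Glycolysis genes were higher in 12 of 13 counted members, with a median of 0.60, and 0.43 after the trend was removed. Gpi1, which turns a glucose phosphate into a fructose phosphate, read 3937 and 8148 (1.05), and the glucose transporter Slc2a1 read 1113 and 2210 (0.99). Gapdh (0.29) and Eno1 (0.39) had smaller differences, but all 9 and all 7 of their rows were higher. Pfkfb3, which makes the activator of phosphofructokinase, was the exception at 7737 and 5210 (-0.57), on a row with which 1 of its 4 others shared the sign. In oxidative phosphorylation 14 of 15 counted members of complexes I to III and 14 of 15 of complexes IV and V were higher, with medians of 0.35 and 0.59, and 0.22 and 0.42 after the trend was removed. Cox4i1, a subunit of cytochrome c oxidase, read 2715 and 5163 (0.93).

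In other housekeeping lists the counts stand beside 63.2% higher and a median of 0.17, or 0.02 without the trend, for all counted genes. Splicing and hnRNP genes were higher in 23 of 25 counted members, with a median of 0.55 (0.40 without the trend), and Srsf11 (1251 and 2646, 1.08) was higher in all 5 of its rows. Proteasome genes were higher in 18 of 22, with a median of 0.52 (0.40 without the trend). Psmc4, an ATPase of the regulatory particle, read 907 and 2323, at least 1.24 higher, while its other row had the opposite sign. Psma6, a core subunit, read 1818 and 1505 (-0.27). Translation factors were higher in 22 of 27, with a median of 0.33 (0.20 without the trend). Actin and migration genes were higher in 20 of 24, with a median of 0.35 (0.19 without the trend); Evl, which extends actin filaments, read 1601 and 3399 (1.09) with 4 of 4 rows higher, and Rhoa, the GTPase of contractility, read 10455 and 8027 (-0.38). Chaperones lay at the general shift, with 15 of 19 higher and a median of 0.16 (0.0051 without the trend), although Hspe1, the mitochondrial cochaperonin, was at least 1.12 higher. The MAP kinase cascade had 4 of 6 counted members lower and a median of -0.27 (-0.38 without the trend), but with no floor 27 of 46 members lay higher, with a median of 0.084. Hras, a signalling GTPase upstream of it, read 2017 and 906, a bound of -1.01, with its other row of the opposite sign.

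**Figure D4:**
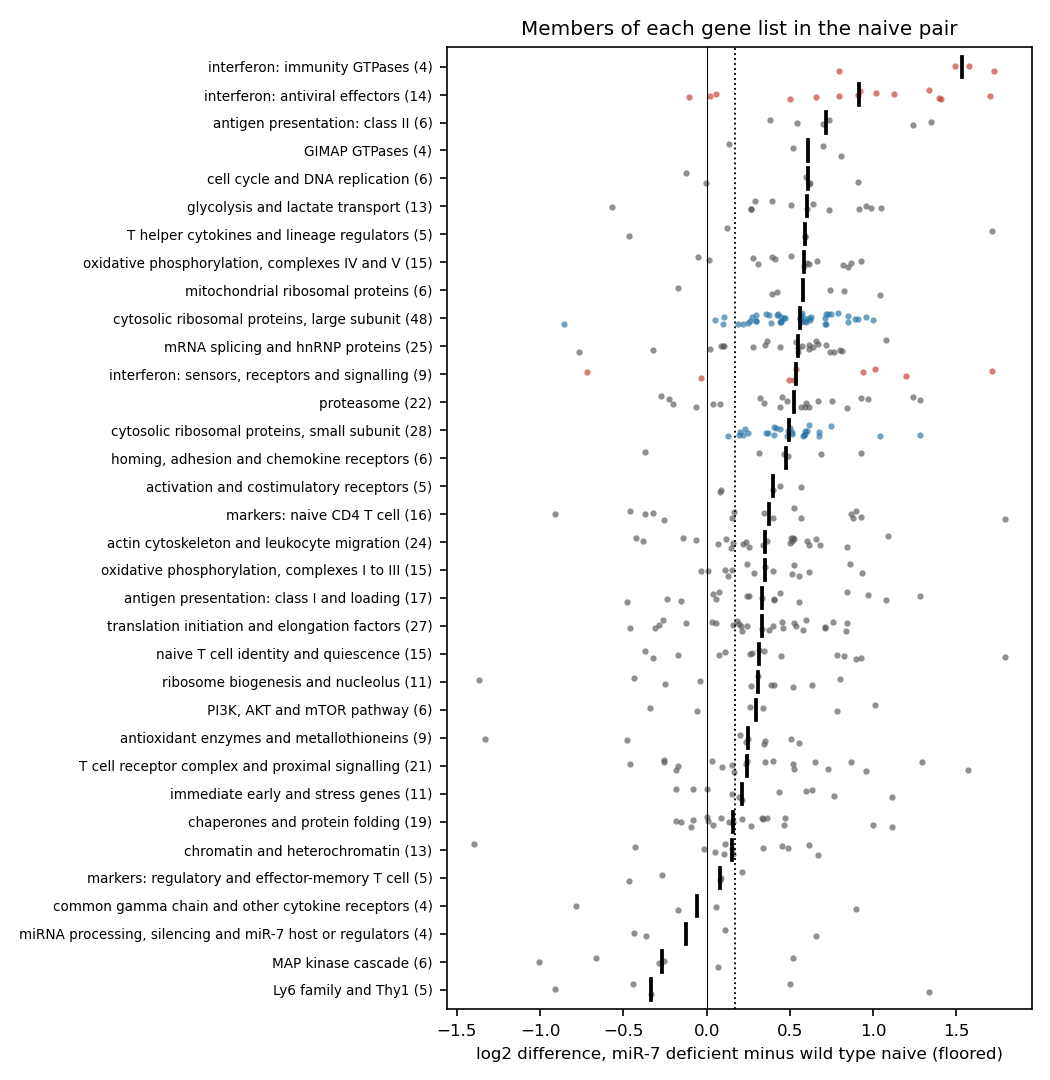
Log2 difference after the floor (horizontal, miR-7 deficient minus wild type naive) of every counted member of each gene list with at least 4 counted members, whose number is in brackets; black bars are list medians and the dotted line is the median of all 2876 genes, 0.17. The interferon lists (red) of GTPases and antiviral effectors have the medians furthest to the right, 1.53 and 0.92. Cytosolic ribosomal protein genes (blue) lie mostly to the right of the dotted line, with Rpl22 furthest to the left of them.

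Smaller lists are given by their counts, to be read beside the 63.2% of all counted genes that were higher. Among transcripts of effector function, immediate early and stress genes were higher in 9 of 11 counted members, with a median of 0.21 (0.067 without the trend), and activation and costimulatory receptors in 5 of 5, with a median of 0.40 (0.26), which was 0 with the floor at the 99th percentile; Cd28, the costimulatory receptor of naive cells, read 1191 and 1762 (0.57). Klf6, a zinc finger factor, read 1748 and 2970 (0.76), and Nfkbia, the inhibitor of NF-kappaB, read 1897 and 2874 (0.60). T helper cytokine and lineage genes were higher in 4 of 5, with a median of 0.59 (0.41 without the trend), or 0.14 when all rows of a gene were averaged; Stat3, which relays interleukin-6, read 3513 and 5285 (0.59), although its other row had the opposite sign. Cytokine receptors were split 2 to 2 (median -0.058, and -0.24 without the trend), with Il9r, the interleukin-9 receptor, at 2024 and 1176 (-0.78) and Il2rg, the common gamma chain, at 6787 and 7047 (0.05). Homing and adhesion genes were higher in 5 of 6, with a median of 0.48 (0.31 without the trend), and Cxcr4, a chemokine receptor, read 5411 and 7578 (0.49).

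In the lists of cell growth and survival, the 4 counted GIMAP GTPases, which lymphocytes need to survive, were all higher, with a median of 0.61 (0.44 without the trend), and Gimap4 read 1954 and 3417 (0.81). Cell cycle genes were higher in 4 of 6, with a median of 0.61 (0.44 without the trend), which was 0.15 and 0.26 with the floor at the 99th and 75th percentile; Pcna, the sliding clamp of DNA replication, read 1898 and 2905 (0.61). Of the 3 counted genes of the BCL2 and apoptosis list all were higher (median 0.57, and 0.42 without the trend), led by Mcl1, which holds apoptosis back, at 1579 and 3084 (0.97) with 3 of 3 rows higher. Genes of PI3K, AKT and mTOR were higher in 4 of 6, with a median of 0.30 (0.14 without the trend), and Sesn1, an inhibitor of mTOR complex activity, read 1322 and 2669 (1.01). Mitochondrial ribosomal proteins were higher in 5 of 6, with a median of 0.58 (0.47 without the trend), or 0.24 with the floor at the 75th percentile. Ribosome biogenesis genes were higher in 7 of 11, the general share, with a median of 0.31 (0.18 without the trend). Antioxidant enzymes and metallothioneins were higher in 7 of 9 (0.25, and 0.17 without the trend) and chromatin genes in 10 of 13 (0.15, and 0.0039 without it). The 4 counted genes of miRNA processing and silencing were split 2 to 2 (median -0.13, and -0.23 without the trend); Tarbp2, the partner of Dicer, read 1404 and 1035 (-0.44) with 3 of 3 rows lower. The Ly6 family with Thy1 had 2 of 5 higher and a median of -0.34 (-0.47 without the trend), a sign that turned under several settings, with Ly6a and Thy1 at its ends. Of the remaining marker lists, regulatory and effector-memory T cell genes were higher in 3 of 5 counted members (median 0.08, and -0.078 without the trend). CD8 T cell and NK cell genes were higher in 1 of 2. The chemokine gene Ccl5 read 2988 and 5794 (0.96), while Ncr1 read 1493 and 687, a bound of -0.57. Klrb1c, outside the count, read 1314 and 302, a bound of -0.39. With no floor applied, 9 of the 13 measured CD8 T cell and NK cell genes were higher and 4 lower. Erythroid and platelet genes were higher in 0 of 1, Hba-a1 (2556 and 1844, -0.47), a haemoglobin chain.

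Of the 28 genes 2-fold or more lower, 5 (17.9%) belonged to any of the 42 lists, beside 14.6% of all counted genes and 31 (45.6%) of the 68 higher, the lists having been written with earlier results known. Ammecr1l, a gene of poorly known function, read 6640 and 2499 (-1.41). Cbx3, which encodes the heterochromatin protein HP1 gamma, read 4864 and 1844 (-1.40), and its 2 other rows were lower too. Nvl, an ATPase of ribosome assembly, read 12924 and 5017 (-1.37), on a row with which 2 dim rows shared the sign. The others of the 15 lowest named here were Hoxd10 (-1.39), Pglyrp1 (-1.24), Nectin4 (-1.23), Mindy4 (-1.21), Tef (-1.16), Mecom (-1.13), Pigm (-1.04) and Dnajc5 (-0.95). The other row of Hoxd10 (1.46), of Nectin4 (0.52) and of Dnajc5 (0.03) had the opposite sign, each below the floor on both arrays. Ammecr1l and Mecom were each lower in 3 of 5 rows, and Mindy4 in 2 of 2. Tef, a circadian transcription factor of the PAR bZIP family, was lower in all 4 of its rows.

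Among the bounds on the low side, those of Tpcn1, Aldh1a2 and Kif9 went beyond the lowest difference above both floors (-1.41). Tpcn1, an ion channel of endosomes and lysosomes, read 10568 on the wild type and 478 on the miR-7 deficient array, a bound of -3.40 on the log2 scale and a difference of -4.47 without a floor. Its other 2 rows, both below the floor, had differences of 0.04 and 0.18. Aldh1a2, an enzyme that makes retinoic acid, read 4038 and 618, a bound of -2.01, from its only row. Kif9, a kinesin of cilia, read 3141 and 720, a bound of -1.65. Mt1, a metallothionein that binds zinc, read 2521 and 478, a bound of -1.33, while its other row read 385 and 476. The remaining bounds were Pemt (-1.39), a phospholipid enzyme, Muc19 (-1.27), a mucin, Aebp1 (-1.26), an extracellular matrix protein, and Sema6c (-1.26), a semaphorin. Kif9 was lower in 2 of 3 rows and Sema6c in 4 of 5, while the other row of Pemt, below the floor on both arrays, was at 1.07.

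The 15 lowest included a pheromone receptor, Vmn2r73 (3454 and 1485, -1.22), and an odorant receptor, Olfr679 (2141 and 1062, -1.01), both of the gene families that set the floor and that hold 30 of the 2876 counted genes (1.04%), and Defb2, an epithelial defensin (2213 and 1085, -1.03). None of the 15 highest was such a receptor. All 620 background receptor genes together had a median difference of -0.21 without a floor, with 253 higher and 367 lower.

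Genes with several rows are described by their rows, which read the same RNA and are no replicates. The 15 highest and lowest were chosen so that rows above both floors share a sign, so agreement among those rows was fixed by the choice and supports nothing. Of the 15 highest genes 8 had 2 or more rows above both floors, and of the 15 lowest 0 did. Over all 1354 counted genes with several rows 1586 of 2552 other rows (62.1%) shared the sign of the row that represents the gene, over the 68 higher genes 48 of 70 (68.6%) and over the 28 lower genes 18 of 33 (54.5%). Of all counted genes 63.2% were higher, which also enters these shares.

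**Figure D5:**
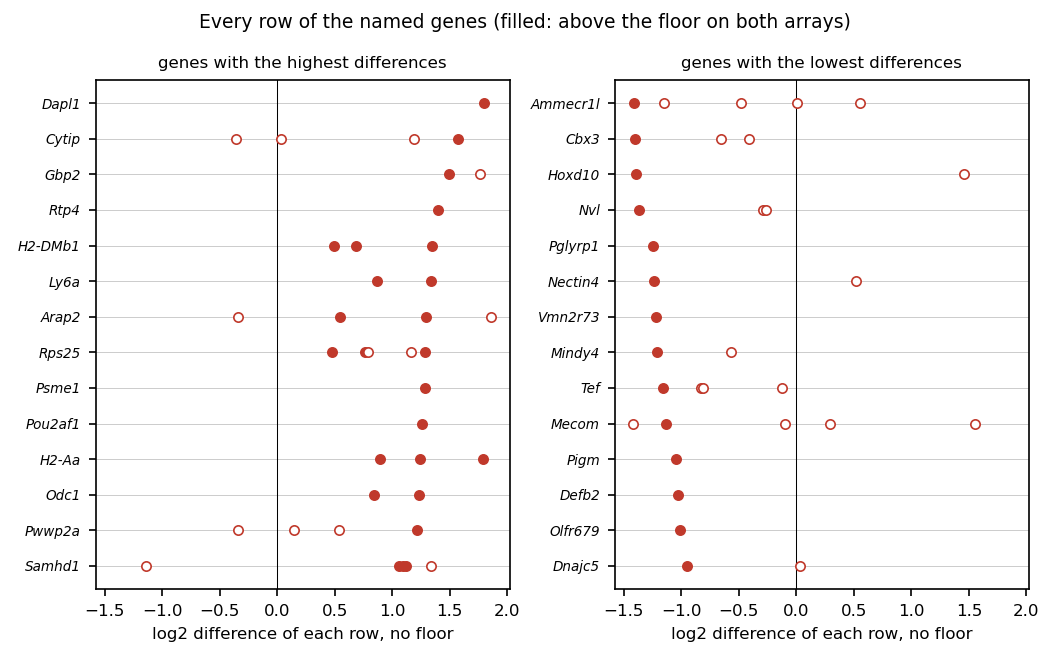
Log2 difference without a floor (horizontal) of every row of the genes with the highest (left) and lowest (right) differences; filled circles are rows above the floor on both arrays and open circles are the others. H2-Aa, Rps25 and H2-DMb1 have 3 filled circles each, all right of 0, while every gene on the right side has 1 filled circle.

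The genotype difference of the naive pair was set beside that of the 2 arrays labelled as activated for 48 hours, which share no sample with it but hold abundant neural transcripts. Of the 68 genes higher in the naive pair 39 had a mean above the floor there; 16 were higher and 23 lower on the miR-7 deficient array. Of the 28 lower genes 25 had such a mean, 13 of them higher and 12 lower. Among all counted genes 40.6% of 2427 were higher there. The 93 interferon genes had a median of -0.12 there without a floor, and 38 were higher.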

How the data were processed

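RNA of 4 samples was hybridised to single-colour NimbleGen arrays with Cy3, per the labels. The authors deposited 1 normalized intensity per row; RMA is the method, per the submitters' processing notes, with no version given. The values are linear although a file header calls them log2. Comparison tables deposited by the authors hold a fold, brighter over dimmer array, which equalled the recomputed ratio in all 35411 rows (relative tolerance 1e-06), and named the genes. For 31529 rows the gene number matched RefSeq genes of GRCm38.p6, which updated symbols.

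A gene took the values of its brightest row, by mean log2 intensity over the naive pair. There was no test, with 1 array in a group, and the number of arrays limits the precision. Rows of a gene above both floors differed with a pooled SD of 0.34 (395 genes), which is no replicate error. Named genes are the 15 highest and 15 lowest differences above both floors whose rows above both floors share a sign, the 8 largest bounds in each direction, and list members, leaving out predicted genes, pseudogenes and receptor segments; not every gene chosen this way is reported. The members, the 42 lists and the rules were chosen with earlier results of these data known. Alternatives changed the scaling, floor, population and rows. The counting step was run on simulated data with known changes, in genes well above the floor and without an intensity trend. That run therefore does not measure errors of the counts near the floor or from the scaling. The software was Python 3.11.15, statsmodels 0.14.6, numpy 2.4.6, matplotlib 3.10.9 and pandas 2.3.3.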

Additional observations from a re-analysis of the deposited data

Results flagged for a closer look

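For 3 gene lists the naive pair and the pair labelled as activated gave medians of opposite sign for members above the floor on both pairs, at least 0.2 from 0 each. The difference between the pairs was not tested, since each group has 1 array. Small-subunit ribosomal protein genes had a median of 0.49 in the naive pair, with 28 of 28 members higher in miR-7 deficient cells, and -0.21 in the other pair, with 21 of 28 lower. Genes of complexes I to III of oxidative phosphorylation had medians of 0.40 and -0.20 over 15 members, 14 of them higher in the naive pair and 9 lower in the other. Class I antigen presentation genes had medians of 0.24 and -0.23 over 11 members, 9 higher in the naive pair and 8 lower in the other. The contrast is not particular to these lists. Over all measured members without a floor, class II genes had medians of 0.59 and -0.36 and GIMAP genes of 0.52 and -0.44. Large-subunit ribosomal protein genes had 0.56 and -0.20. All 2876 counted genes had a median of 0.17 in the naive pair, with the floor applied. The 2427 of them with a mean above the floor on the pair labelled as activated had a median of -0.10 there, without a floor. That pair is also not the same RNA mixture, since it holds neural transcripts.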

How the results depend on the processing

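The counts of genes 2-fold or more higher and lower, 68 and 28, moved with most settings. They were 34 and 53 (39.1% higher) after a lowess trend was removed, 29 and 62 (31.9%) after quantile normalization of the pair alone, and 33 and 56 (37.1%) after centring on the median of the counted genes, a setting chosen after seeing the data. With no floor and all genes they were 1699 and 1788 (48.7%), with the floor at the 99th percentile 10 and 7 (58.8%) and at the 75th percentile 388 and 326 (54.3%). Averaging every row of a gene gave 38 and 11, genes above both floors gave 15 lower, and genes with 2 or more rows that all share a direction, chosen after seeing the data, gave 18 and 5. Of 30 lists with at least 5 counted members, 28 had a median above 0, and 25 to 30 did under the alternatives. The signs that turned belonged to lists with medians near 0 or few members. Regulatory and effector-memory markers were at -0.078 without the trend, -0.085 with quantiles, -0.13 at the 99th percentile, -0.095 when centred on counted genes and -0.093 with concordant rows. The MAP kinase cascade was at 0.084 with no floor and 0.065 at the 75th percentile and with either array above the floor. The Ly6 family, -0.34 as counted over 5 members, was at 0.50 at the 99th percentile and with concordant rows, 0.13 at the 75th, 0.082 above both floors and 0.029 with all rows. Chromatin genes (-0.020 and -0.024) and chaperones (-0.0024 and -0.015) turned with quantiles and with centring on counted genes. The cause was not tested. No paired analysis was possible because each group has 1 array. Signal near the floor limits dim genes, including most interferon and miR-7 target genes. Many list medians kept their sign but moved by more than 1.5 times, and some of them follow. Interferon sensors went from 0.54 to 1.01 with the floor at the 99th percentile. With concordant rows alone immediate early genes went from 0.21 to 0.77, complexes I to III from 0.35 to 0.93 and chromatin genes from 0.15 to 0.53. T helper genes then fell from 0.59 to 0.061, class I genes from 0.33 to 0.058, naive identity genes from 0.31 to 0.073 and naive CD4 markers from 0.37 to 0.15.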
